A study of Homo sapiens with 12 samples.

Results

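The genes described here are 10 components of JAK-STAT signaling: the Janus kinases JAK1, JAK2, JAK3 and TYK2, the transcription factors STAT3, STAT5A, STAT5B and STAT6, the adaptor SH2B3 (LNK) and the phosphatase PTPN6 (SHP-1). They were chosen by gene symbol from 38551 genes read from the count table. All 10 had a row and all 10 were among the 13996 genes that passed the filter on low counts. RNA was sequenced from HEL cells, an erythroleukemia line of human origin that bears mutated JAK2 and, in every group used here, also expresses Cas9. The tested groups received sg2 or sg3, a pair of guide RNAs against KDM4C (4 libraries each), and the control group received a guide RNA against luciferase (4 libraries). All groups were transduced by lentivirus, and the cells were cultured with blasticidin and kept in puromycin at 1.5 µg/mL over 11 days. The column names mark all 12 libraries as vehicle-treated (DMSO). The model is 1 cell line, and knockout populations are pools in which edited and unedited cells cannot be told apart, nor can fewer cells and less RNA per cell. Whether the replicates stem from independent transductions is not given in the sources used here, and the p-values therefore reflect only the scatter of these libraries, possibly technical.

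Cytokine receptors without kinase activity of their own bind Janus kinases at their cytoplasmic tails. When a ligand brings receptor chains together, the kinases phosphorylate each other, the receptor and the STAT proteins, which then dimerize and drive transcription in the nucleus. In the erythroid and megakaryocytic lineages JAK2 serves receptors such as that for erythropoietin (EPOR), STAT5 is a main effector, and LNK and SHP-1 restrain the signal.

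The guide target sequences are shown because the groups are defined by them and because KDM4C lies on the same chromosome arm as JAK2. They are written 5′ to 3′, the target in lower case and the adjacent PAM of the genome in capitals.
sg2: gcaagagtataatgcaacagTGG
sg3: ggtcatctgtgactgagtcgGGG
On hg38 the sg2 target was found on chromosome 9 at 7011804 to 7011823 (plus strand) and the sg3 target at 6984259 to 6984278 (minus strand), both within annotated exons of KDM4C. Only chromosome 9 was searched. The targets lay 1.88 Mb and 1.86 Mb beyond the end of JAK2 (chromosome 9, 4985086 to 5128183, plus strand).

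Total counts ranged from 10031809 to 78966125 per library. The targeted transcript, KDM4C, had 40.5, 43.0, 49.8 and 55.1 CPM (counts scaled to a common library size) in sg2 and 59.5, 60.8, 63.3 and 63.2 CPM in sg3, against 67.8, 70.2, 68.1 and 71.4 CPM in control. It was lower in every knockout library, with log2 fold changes of -0.57 ± 0.069 (SE) for sg2 (adjusted p = 2.59e-05) and -0.17 ± 0.067 for sg3 (adjusted p = 0.0499). The sg3 call was lost in 11 of 20 alternative analyses. On the first principal component (38.4% of the variance of log2 CPM), sg2 libraries 1 and 2 lay at -3.25 and -0.27, between the other 6 knockout libraries (12.4 to 23.1) and the control libraries (-27.6 to -22.8). All 10 marker genes of the HEL line were detected, with a summed level of 6533 to 7319 CPM in knockout and 6703 to 7558 CPM in control libraries. Single markers of the line separated the groups in both directions: TFRC, the transferrin receptor, was at 1333 to 1434 CPM in knockout and 1608 to 1651 CPM in control, and TAL1 at 388 to 423 CPM in knockout and 451 to 484 CPM in control. ITGA2B, a platelet integrin, was at 1224 to 1530 CPM in knockout and 1069 to 1112 CPM in control, ALAS2 at 161 to 208 CPM in knockout and 135 to 144 CPM in control, and GATA1 at 249 to 273 CPM in knockout and 231 to 244 CPM in control. Their part in the results below was not tested.

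The members were among the more abundant transcripts of these cells. Levels are compared between genes as CPM per kilobase of exon (mean ± SD, 8 knockout and 4 control libraries). STAT3 had the highest mean, with 128 ± 1.77 in knockout and 121 ± 1.20 in control. In sg3 its range (126 to 130) overlapped that of PTPN6 (122 to 128). PTPN6 had 123 ± 2.51 in knockout and 104 ± 3.14 in control, and STAT5A 109 ± 2.38 in knockout and 107 ± 2.51 in control. PTPN6 stood apart above STAT5A with each guide, whereas in control the ranges of these genes overlapped. Both, like STAT3, lay above at least 96.3% of tested genes in every group.

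JAK2, the kinase mutated in this line, had 56.0 ± 2.49 CPM per kilobase in knockout and 57.4 ± 2.48 in control. JAK1, which pairs with many interleukin and interferon receptors, had 55.3 ± 1.70 in knockout and 55.3 ± 0.754 in control. These kinases overlapped each other in each group. STAT5B (44.9 ± 2.50 in knockout, 37.9 ± 0.418 in control) and TYK2 (29.2 ± 1.74 in knockout, 31.0 ± 0.860 in control) followed and stood apart from their neighbors in each group. SH2B3 (25.5 ± 1.04 in knockout, 23.8 ± 0.436 in control), STAT6 (24.7 ± 0.922 in knockout, 21.3 ± 0.818 in control) and JAK3 (23.8 ± 1.34 in knockout, 22.0 ± 1.89 in control) were lowest. Neighbors among these last genes overlapped, except SH2B3 and STAT6 in sg2.

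**Figure D1:**
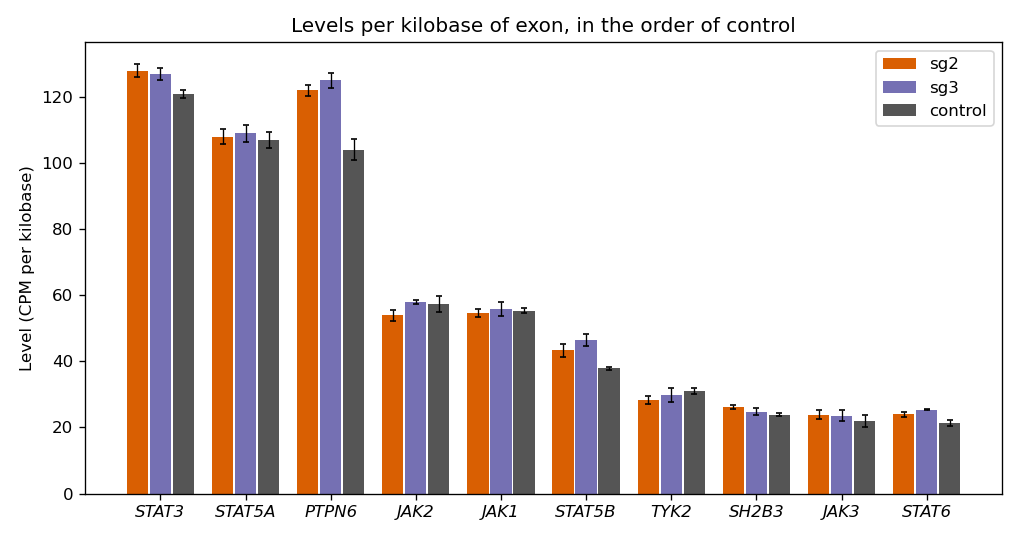
Levels of the 10 genes in CPM per kilobase of exon (y axis, bars start at 0), ordered by their mean in control; bars are means and error bars SD over 4 libraries of sg2, sg3 and control. PTPN6 reached 122 in sg2 and 125 in sg3, above STAT5A, while in control their ranges overlapped.

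Of the 10 members, 5 rose and none fell in the knockout average (both guides averaged against control): PTPN6, STAT5B, STAT6, SH2B3 and STAT3. All 4 Janus kinases and STAT5A were not called. Among all tested genes 43.9% were called in this comparison (21.6% higher and 22.3% lower), so the share of members called in either direction was near the background, while the called members were all higher. The median log2 fold change of the members was 0.090, beside -0.005 over all tested genes, and their median size of change was 0.094, beside 0.156. The largest changes, those of PTPN6 and STAT5B, exceeded those of 68.6% and 68.2% of tested genes in size, and that of JAK1 exceeded 0.207%.

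**Figure D2:**
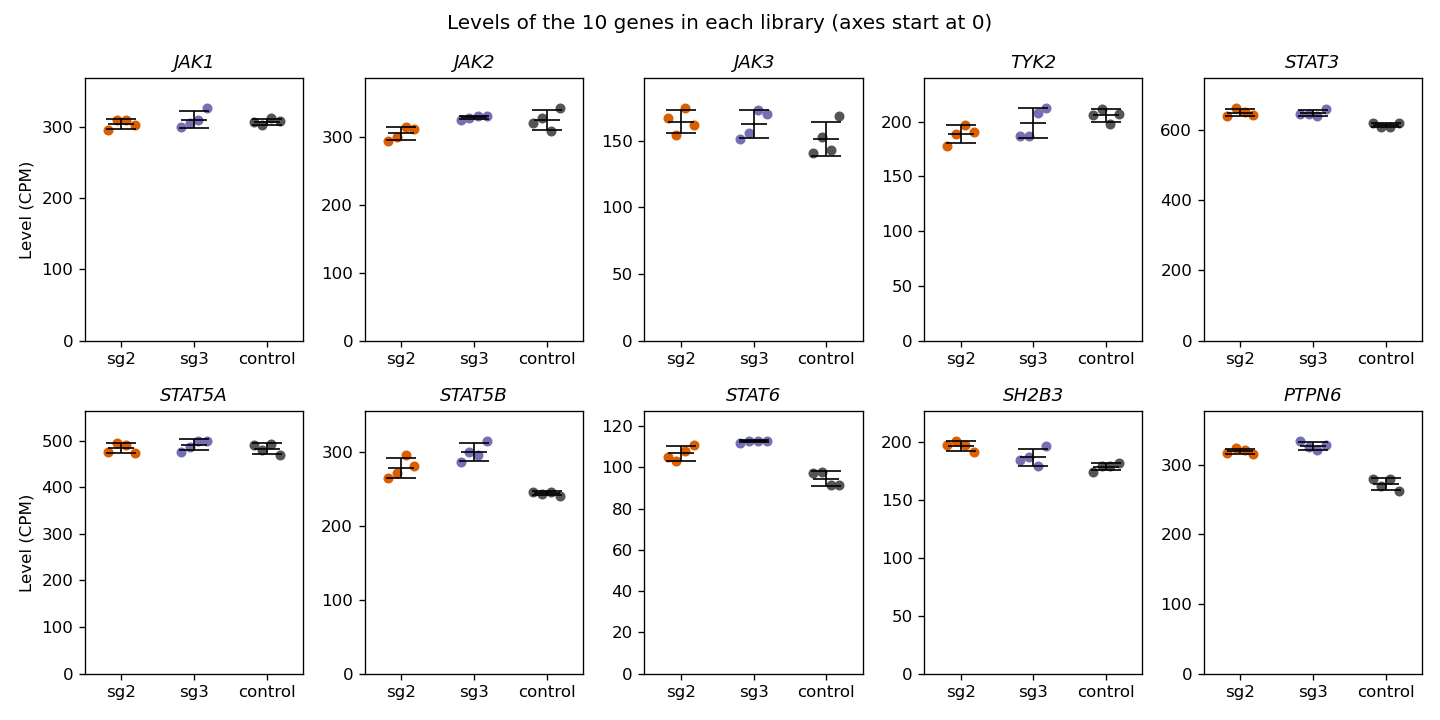
Level of each gene in CPM (y axes start at 0) in 4 sg2, 4 sg3 and 4 control libraries; points are libraries and the line with bars is the mean ± SD. All knockout libraries of STAT3, STAT5B, STAT6 and PTPN6 lie above all control libraries, and the other genes overlap with control in at least 1 guide.

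Among the STATs, STAT5B changed most. STAT5B (chromosome 17, 42199177 to 42288437, minus strand), one of a pair of closely related factors activated downstream of EPOR, had 265, 271, 295 and 281 CPM in sg2 and 286, 299, 296 and 315 CPM in sg3, against 246, 243, 245 and 240 CPM in control. The 8 knockout libraries lay above the 4 control libraries with no overlap. Its log2 fold change was 0.24 ± 0.035 in the knockout average, an 18.5% higher level (95% interval 12.5 to 24.7%, adjusted p = 3.80e-05). For sg2 it was 0.19 (adjusted p = 0.00213) and for sg3 0.30 (adjusted p = 2.22e-05).

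STAT5A (chromosome 17, 42287547 to 42311943, plus strand), the paralog next to it, did not move with STAT5B. It had 476, 495, 490 and 474 CPM in sg2 and 476, 487, 500 and 500 CPM in sg3, against 490, 479, 493 and 468 CPM in control. These ranges overlapped fully, and the level in the knockout average differed from control by 0.977% (95% interval -3.32 to 5.47%, adjusted p = 0.736). The largest rise inside that interval was smaller than the lowest bound of the interval for STAT5B.

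The difference between both paralogs was tested within each library as the ratio of STAT5B to STAT5A, each per kilobase, which does not depend on library size. The ratio was 0.389, 0.383, 0.421 and 0.414 in sg2 and 0.420, 0.429, 0.414 and 0.440 in sg3, against 0.351, 0.355, 0.347 and 0.358 in control. Every knockout library exceeded every control library. The mean log2 ratio was higher by 0.23 in knockout (two-sided exact permutation test, 8 against 4 libraries, p = 0.00404, adjusted over 3 tests 0.0121, the smallest the design can give). For sg2 alone the difference was 0.19 and for sg3 alone 0.27 (exact permutation test, p = 0.0286 each, the smallest that 4 against 4 libraries allow). Exons of both genes overlap on opposite strands by 571 bases, 12.7% of the exon length of STAT5A and 8.88% of that of STAT5B. They also share 507 stretches of 50 bases, 7.56% of those of STAT5A and 3.96% of those of STAT5B, so reads from these stretches are uncertain.

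**Figure D3:**
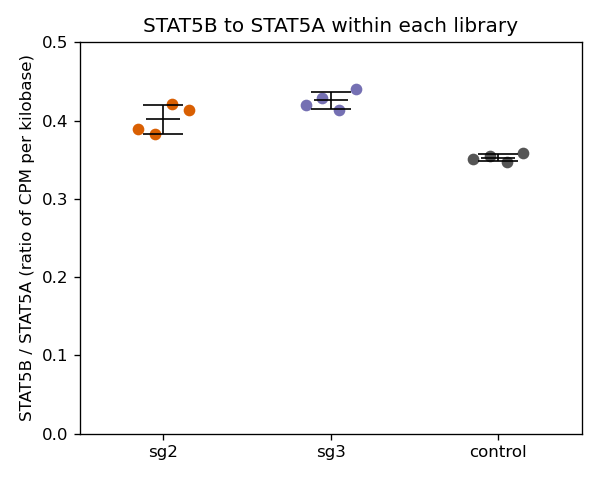
Ratio of STAT5B to STAT5A in each library (y axis from 0, ratio of CPM per kilobase); points are libraries of sg2, sg3 and control, the line with bars is the mean ± SD. Knockout libraries sit between 0.383 and 0.440 and control libraries between 0.347 and 0.358.

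STAT6 (chromosome 12, 57095408 to 57111413, minus strand), which acts downstream of interleukin-4 and interleukin-13 receptors, had 105, 103, 108 and 111 CPM in sg2 and 112, 113, 113 and 113 CPM in sg3, against 97.4, 97.8, 91.2 and 91.5 CPM in control. The groups did not overlap. The log2 fold change was 0.21 ± 0.033 in the knockout average (15.6% higher, adjusted p = 8.67e-05), 0.17 for sg2 (adjusted p = 0.00380) and 0.25 for sg3 (adjusted p = 5.43e-05). STAT6 had the fewest reads of the members, with 1082 counts in its lowest library, where counting error alone is 3.04%. Its exons overlap those of NAB2 on the opposite strand by 69 bases (1.56% of its length).

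STAT3 (chromosome 17, 42313324 to 42388502, minus strand), the effector of interleukin-6 family receptors, had 640, 663, 649 and 642 CPM in sg2 and 644, 644, 639 and 659 CPM in sg3, against 619, 608, 608 and 618 CPM in control. It separated from control in all 8 knockout libraries, but by little. The log2 fold change in the knockout average was 0.079 ± 0.027 (5.62% higher, adjusted p = 0.0263), and neither guide alone was called (sg2 0.081, adjusted p = 0.0615; sg3 0.076, adjusted p = 0.0565). Leaving out control library 2 (adjusted p = 0.0874) or 3 (adjusted p = 0.0730) ended the call in the average, as did applying no filter on low counts (adjusted p = 0.189). Both guides were called by DESeq2 (sg2 adjusted p = 0.00613, sg3 adjusted p = 0.00764) and limma-voom (sg2 adjusted p = 0.0274, sg3 adjusted p = 0.0256). The same held with upper-quartile factors (sg2 adjusted p = 0.0392, sg3 adjusted p = 0.0143). The sg3 value was also called with 2 groups in the fit (adjusted p = 0.0438), without sg2 libraries 1 and 2 (adjusted p = 0.0401) and without sg2 library 4 (adjusted p = 0.0429).

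The 3 STAT genes on chromosome 17 lie within 189 kb, and the 3′ ends of STAT5A and STAT3, which face each other, are 1381 bases apart. The middle gene, STAT5A, was not called, while both outer genes were higher. Of other STATs with enough counts, named after their values were seen, STAT2 (0.18 ± 0.039, adjusted p = 0.00142), a partner of interferon signaling, rose. STAT4 had 0.43 ± 0.23 (adjusted p = 0.136) at about 1 CPM.

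Of both inhibitors among the members, PTPN6 had the larger difference in the knockout average. PTPN6 (chromosome 12, 6946577 to 6961316, plus strand), a tyrosine phosphatase of blood cells that dephosphorylates receptors and Janus kinases, had 317, 324, 321 and 315 CPM in sg2 and 335, 325, 321 and 329 CPM in sg3, against 279, 270, 279 and 262 CPM in control. The lowest knockout library was well above the highest control library. Its log2 fold change was 0.25 ± 0.030 in the knockout average (18.7% higher, 95% interval 13.6 to 23.9%, adjusted p = 7.32e-06), 0.23 for sg2 (adjusted p = 1.57e-04) and 0.27 for sg3 (adjusted p = 1.38e-05). The call held in each of the 20 alternatives, as it did for STAT5B and STAT6.

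SH2B3 (chromosome 12, 111405107 to 111451623, plus strand), the adaptor that binds JAK2 and dampens its signal, had 197, 201, 197 and 191 CPM in sg2 and 184, 187, 179 and 196 CPM in sg3, against 174, 179, 179 and 182 CPM in control. The sg2 libraries were all above control, whereas sg3 overlapped it. In the knockout average the log2 fold change was 0.10 ± 0.031 (7.22% higher, adjusted p = 0.0157). It was 0.14 for sg2 (adjusted p = 0.00824) and 0.060 for sg3, which was not called (adjusted p = 0.190). The guides themselves did not differ at the threshold (sg3 against sg2, -0.081, adjusted p = 0.312). The call in the average was lost without control library 1 (adjusted p = 0.0543) and with no filter on low counts (adjusted p = 0.0770). SH2B1, the related adaptor that is known to enhance JAK2 activity, had -0.092 ± 0.048 (adjusted p = 0.130) and was likewise named after its value was seen.

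Within the Janus kinases no transcript was called in any comparison with control. JAK2 had 294, 300, 315 and 311 CPM in sg2 and 325, 328, 330 and 331 CPM in sg3, against 320, 327, 309 and 343 CPM in control. All sg2 values lay below all sg3 values, and both overlapped control. The change was -2.60% in the knockout average (95% interval -7.15 to 2.18%, adjusted p = 0.367), -6.15% for sg2 (adjusted p = 0.0815) and 1.09% for sg3 (adjusted p = 0.765). Without control library 3 the sg2 value was called (log2 fold change -0.12, adjusted p = 0.0418), as it was by DESeq2 (-0.093, adjusted p = 0.0357). Without sg2 libraries 1 and 2 it was -0.050 (adjusted p = 0.433), and the average was -0.015 (adjusted p = 0.745). Without control library 4 the average was -0.010 (adjusted p = 0.845).

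JAK1 (chromosome 1, 64833223 to 65067746, minus strand) had the smallest log2 fold change of the members in the knockout average. It had 295, 310, 309 and 302 CPM in sg2 and 299, 305, 309 and 327 CPM in sg3, against 307, 302, 312 and 308 CPM in control. Its level in the knockout average differed from control by -0.030%, with a 95% interval of -4.48 to 4.62% (adjusted p = 0.993). Exons of JAK1 overlap those of RAVER2 on the opposite strand by 189 bases (3.40% of its length).

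JAK3 (chromosome 19, 17824782 to 17848071, minus strand), which partners the common gamma chain of interleukin receptors, had 167, 154, 175 and 162 CPM in sg2 and 151, 156, 173 and 170 CPM in sg3, against 141, 153, 143 and 169 CPM in control. Knockout and control overlapped: control libraries 2 and 4 lay above the lowest knockout library. The log2 fold change was 0.11 ± 0.052 in the knockout average (adjusted p = 0.0930). Leaving out control library 4 gave a call in the average (0.17, adjusted p = 0.0133), for sg2 (0.17, adjusted p = 0.0305) and for sg3 (0.16, adjusted p = 0.0295). Leaving out sg3 library 1 gave one in the average (0.13, adjusted p = 0.0483).

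TYK2 (chromosome 19, 10350528 to 10380572, minus strand), a kinase of interferon and interleukin-12 family receptors, had 178, 189, 197 and 191 CPM in sg2 and 187, 187, 208 and 213 CPM in sg3, against 206, 212, 198 and 207 CPM in control. The sg2 libraries were all below control and the sg3 libraries overlapped it. The log2 fold change was -0.087 ± 0.041 in the knockout average (adjusted p = 0.0938) and -0.12 for sg2 (adjusted p = 0.0617), both short of the threshold. Without sg3 library 4 both were called (average -0.10, adjusted p = 0.0335; sg2 -0.13, adjusted p = 0.0357), and DESeq2 (adjusted p = 0.0464), limma-voom (adjusted p = 0.0467) and a fit of 2 groups only (adjusted p = 0.0311) also called sg2. Without sg2 libraries 1 and 2 the sg2 value was -0.082 (adjusted p = 0.331).

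The makeup of the Janus kinase pool is given as a description. Of the 4 kinases' summed level per kilobase, JAK1 made up 33.7 ± 0.664% in knockout and 33.4 ± 1.15% in control (SD, n = 8 and 4), and JAK2 made up 34.1 ± 0.936% in knockout and 34.7 ± 0.581% in control. JAK3 made up 14.5 ± 0.692% in knockout and 13.3 ± 0.787% in control, and TYK2 17.8 ± 0.478% in knockout and 18.7 ± 0.485% in control. The differences were not tested.

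For single guides, 4 members rose with sg2 (STAT5B, STAT6, SH2B3 and PTPN6), against 28.3% of all tested genes called and 14.5% called higher. With sg3, 3 rose (STAT5B, STAT6 and PTPN6), against 44.1% called and 21.9% called higher. No member fell with either guide. In the knockout average 4 members had every knockout library above every control library, a pattern seen in 12% of tested genes. With sg2 it was 5 members (14.9% of genes) and 1, TYK2, was below in every library (14.3% of genes), and with sg3 it was 4 members (20.2% of genes). Both guides share the control libraries, so their values are not independent.

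**Figure D4:**
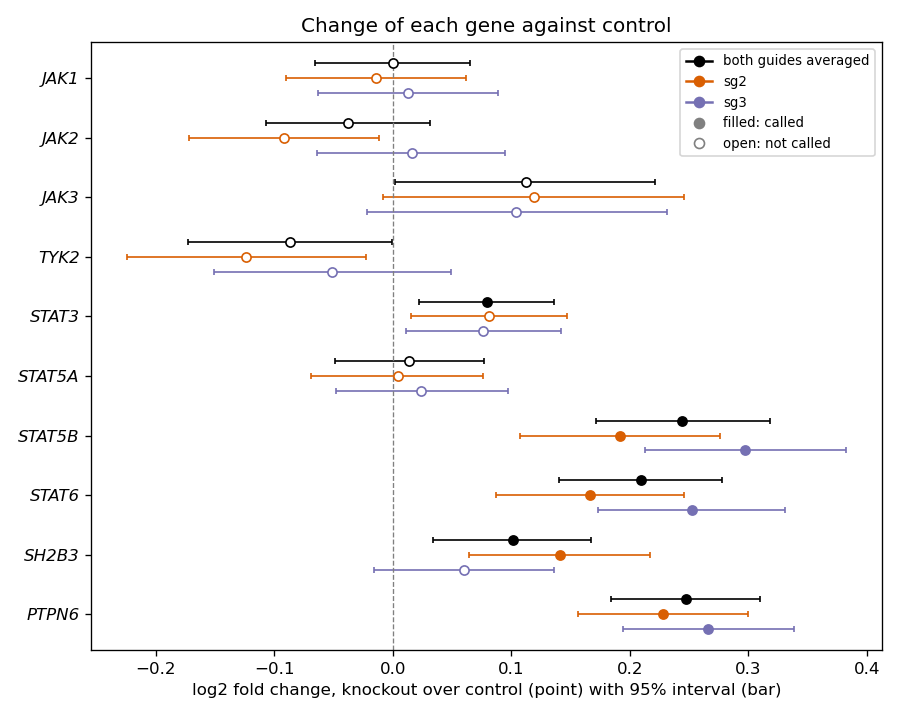
Log2 fold change over control (x axis) with 95% interval for each gene (rows), for both guides averaged, sg2 and sg3; filled points were called at an adjusted p under 0.05. PTPN6, STAT5B and STAT6 were called for each guide (0.17 to 0.30), and the intervals of JAK1 and STAT5A included 0 throughout.

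Between the guides, no member was called by edgeR (sg3 against sg2; 0.00714% of all genes called, or 1 gene), nor under any of the 20 alternatives, DESeq2 and limma-voom included. At an unadjusted p under 0.05, 4 of the 10 members differed, beside 2098 of the 13996 tested genes. JAK2 (log2 difference 0.11), STAT5B (0.11) and STAT6 (0.086) were higher in sg3, and SH2B3 (-0.081) was lower. Without sg2 libraries 1 and 2, the knockout average was 0.27 for STAT5B, 0.23 for STAT6 and 0.25 for PTPN6, and 5 members were called as before.

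Markers of other blood and tissue cells were low, but several lists moved with the groups. Summed monocyte markers were at 44.9 to 52.9 CPM in knockout and 35.5 to 43.9 CPM in control. LYZ, a lysozyme gene, supplied nearly all of it. CSF1R, a receptor of the monocyte lineage, was at 0.847 to 1.40 CPM in knockout and 0.184 to 0.604 CPM in control, without overlap, and CD14 stayed at or under 0.199 CPM and was 0 in 4 libraries. Summed epithelial markers were at 6.38 to 9.18 CPM in knockout and 4.13 to 4.41 CPM in control, nearly all of it KRT8. B cell markers summed to 3.0 to 4.53 CPM in knockout and 2.34 to 2.86 CPM in control, with MS4A1 at 0 in 11 libraries, and fibroblast markers to 0.594 to 0.717 CPM in knockout and 0.302 to 0.553 CPM in control, with COL1A2 at 0 in all 12. T cell markers (1.66 to 3.14 CPM in knockout, 2.15 to 2.88 CPM in control) overlapped, with CD3D at 0 in 10 libraries. Their part in the rise of PTPN6, STAT6 and the receptor genes was not tested.

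Many receptors that use Janus kinases were higher in knockout. Of 28 listed receptor genes 19 were tested, and 14 rose and none fell in the knockout average (background 21.6% higher), with a median log2 fold change of 0.24 beside -0.005 for all genes. CSF3R, the receptor for granulocyte colony-stimulating factor, had the largest rise, with 2.28 ± 0.408 CPM in knockout and 1.10 ± 0.0808 CPM in control (log2 fold change 1.02 ± 0.15, adjusted p = 4.57e-05). IL2RB and IL2RG, chains of the interleukin-2 receptor of which IL2RG is the partner of JAK3, rose by 0.67 ± 0.069 (adjusted p = 2.07e-06) and 0.65 ± 0.043 (adjusted p = 4.78e-08). CSF2RB, the shared beta chain of the interleukin-3 and GM-CSF receptors and the most abundant of the list per kilobase, had 408 ± 24.4 CPM in knockout and 302 ± 6.96 CPM in control (0.43 ± 0.036, adjusted p = 3.08e-07).

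EPOR, named after its value was seen, had 37.3 ± 3.82 CPM in knockout and 38.3 ± 1.93 CPM in control (-0.043 ± 0.060, adjusted p = 0.588) and was not called. With single guides, 12 receptor genes rose with sg2 (background 14.5% higher) and 14 with sg3 (background 21.9% higher). Among those not tested, CSF2RA and IL3RA, which each have near-identical copies on both sex chromosomes, and GHR and PRLR were listed at 0 counts in all libraries.

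Other components of the pathway were mixed. Of 26 listed adaptors, phosphatases, ubiquitin ligases, PIAS proteins and further STATs, 24 were tested, and 9 rose and 2 fell (background 43.9% called). The median log2 fold change of the list was 0.034, beside -0.005 for all genes. The largest rises were those of CBLB, a ubiquitin ligase (0.38 ± 0.10, adjusted p = 0.00587), PTPRC, the phosphatase CD45 (0.35 ± 0.035, adjusted p = 1.60e-06), and GAB2, a docking protein (0.29 ± 0.043, adjusted p = 6.07e-05). PIAS2 (-0.14 ± 0.039, adjusted p = 0.00908) and PIAS4 (-0.11 ± 0.041, adjusted p = 0.0425), SUMO ligases, fell in the knockout average. PIAS2 was not called with sg2 (adjusted p = 0.106), nor was PIAS4 with sg3 (adjusted p = 0.249). The other PIAS genes of the list, named after their values were seen, rose in the knockout average. PIAS3 had 0.285 ± 0.052 (adjusted p = 3.36e-04) and was called with each guide. PIAS1 had 0.096 ± 0.031 (adjusted p = 0.0197) and was not called with sg2 (adjusted p = 0.0844). The most abundant, the adaptor GRB2, was at 0.038 ± 0.031 (adjusted p = 0.349). The phosphatases PTPN1 (0.014 ± 0.033), PTPN2 (-0.056 ± 0.037) and PTPN11 (0.030 ± 0.036), named after their values were seen, were not called, and their difference from PTPN6 was not tested.

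Genes known as targets of STAT3 or STAT5 were mostly called. Of 22 listed, 21 were tested, and 13 rose and 3 fell (background 43.9% called). The median log2 fold change of the list was 0.26, beside -0.005 for all genes. With sg2 12 rose and 3 fell (background 28.3% called), and with sg3 14 rose and 3 fell (background 44.1% called). The largest rises were CCND1, a cyclin, with 1.86 ± 0.409 CPM in knockout and 0.894 ± 0.260 CPM in control (1.02 ± 0.20, adjusted p = 6.67e-04), CDKN1A, a cell cycle inhibitor (0.91 ± 0.098, adjusted p = 2.70e-06), and LRG1 (0.85 ± 0.14, adjusted p = 1.07e-04). The other listed cyclins, named after their values were seen, were more abundant and were not called. CCND2 had 182 ± 21.4 CPM in knockout and 183 ± 24.8 CPM in control (-0.009 ± 0.074, adjusted p = 0.939). CCND3 had 640 ± 8.06 CPM in knockout and 657 ± 11.5 CPM in control (-0.038 ± 0.027, adjusted p = 0.270). PIM1, a survival kinase and the most abundant target, had 978 ± 60.2 CPM in knockout and 726 ± 15.1 CPM in control (0.43 ± 0.039, adjusted p = 5.36e-07). The 3 that fell were MYC (-0.23 ± 0.029, adjusted p = 1.50e-05), HIF1A (-0.20 ± 0.035, adjusted p = 2.52e-04) and ID1 (-0.20 ± 0.036, adjusted p = 3.92e-04).

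The feedback inhibitors among these targets, which shut off Janus kinases or receptors and were named after their values were seen, were all higher: CISH (0.40 ± 0.050, adjusted p = 1.06e-05), SOCS1 (0.71 ± 0.14, adjusted p = 6.70e-04), SOCS2 (0.26 ± 0.044, adjusted p = 2.17e-04) and SOCS3 (0.76 ± 0.052, adjusted p = 6.63e-08). They were picked from 21 tested targets of which 13 rose, and 21.6% of all tested genes were called higher.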

How the data were processed

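RNA of 12 libraries (3 groups of 4) was sequenced. Per the labels, the authors used Trimmomatic 0.39 for trimming, STAR 2.7.4a for alignment (hg38) and featureCounts 2.0.1 for counting. The deposited table holds raw counts, not normalized, with an exon length per gene. The counting options stated name no strand, so reads in overlaps of opposite genes cannot be told apart and, by the program's default, are counted for neither. Of 38571 lines, 20 were broken and the 6 genes they belonged to were left out.

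Testing used edgeR 4.0.16 under R 4.3.3 (limma 3.58.1 and DESeq2 1.42.0 in alternatives). Genes were kept by filterByExpr (minimum count 10, minimum total 15) and scaled by TMM. The quasi-likelihood fit held all 12 libraries and a mean for each group, and p-values were adjusted by Benjamini-Hochberg over 13996 genes and called at 0.05. Intervals are 95%. CPM are TMM-scaled. Groups and replicate numbers came from the sample titles. The members and lists were chosen with earlier results of these data known. Named were all members, KDM4C, from each list the 3 largest called rises and falls and the most abundant gene, and every tested gene between JAK2 and KDM4C; others are marked in the text. The ratio of STAT5B to STAT5A was tested by exact permutation. The model was tested on simulated data. No pair of replicates agreed within sampling noise. Some genes of the lists are counted but not reported here by name.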

Additional observations from a re-analysis of the deposited data

How the results depend on the processing

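Of 800 member values (10 members, 4 comparisons, 20 alternatives), 775 kept their side of the threshold, 5 lost the call and 20 gained one. No called value changed sign. Of the values not called, 15 had the other sign (JAK1, JAK2, JAK3, STAT3 and STAT5A, all at or under 0.020 in size; JAK1 in the average, which rounds to 0, was not counted). PTPN6, STAT5B and STAT6 stayed called against control for the average and for each guide under every alternative. With no filter on low counts 3 members instead of 5 were called in the knockout average, and DESeq2 called 7 instead of 4 with sg2, adding STAT3, JAK2 and TYK2 (the last 2 lower); the cause was not tested. Over the alternatives the counts were 3 to 6 in the average, 4 to 7 for sg2, 3 to 4 for sg3 and 0 between guides. The ratio of STAT5B to STAT5A stayed higher by 0.22 to 0.26 (log2). For KDM4C with sg3, the call was lost in 11 of 20. The number of genes called between guides depended on the setting: 1 by edgeR, 367 with no filter, 118 by DESeq2, 18 by limma-voom, 25 with a replicate block, 201 without sg2 library 4, 2 without sg3 library 2 and 0 in 5 others (without sg2 library 2, sg3 library 1 or sg3 library 3, with 2 groups in the fit, and without sg2 libraries 1 and 2). No pairing by replicate number was seen in the residuals. Residual correlations of 12 same-number pairs ran from -0.17 to 0.18, 1 was over 0.1, and 1 library correlated best with its own number. Pairs with different numbers ran from -0.22 to 0.21. Whether libraries of the same number were handled together is not given in the sources used here, and these correlations cannot settle it. With a replicate block 5 members were called in the average, 4 with sg2, 3 with sg3 and 0 between guides. Depth differed 7.87-fold between libraries, and the members' counting error was at most 3.04%.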

Other observations

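JAK2 and KDM4C are separated by an interval of chromosome 9 in which 10 genes of the table were tested, both included. PLGRKT (log2 fold change 0.15 ± 0.048, adjusted p = 0.0194), CD274, the gene of the immune checkpoint ligand PD-L1 (0.39 ± 0.049, adjusted p = 1.27e-05), and ERMP1 (0.44 ± 0.035, adjusted p = 2.21e-07) rose in the knockout average. UHRF2 (-0.088 ± 0.030, adjusted p = 0.0236) and KDM4C (-0.37 ± 0.058, adjusted p = 8.88e-05) fell. JAK2, RLN1 (-0.010), RIC1 (-0.036), KIAA2026 (0.050) and RANBP6 (-0.075) were not called. With sg3 alone, neither PLGRKT (adjusted p = 0.198) nor UHRF2 (adjusted p = 0.118) was called. The 5 calls of 10 are near the 43.9% of all tested genes called in this comparison.

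Promoter windows from RefSeq (GRCh38.p14, 250 bases before to 50 after each start) covered all 10 members with 19 windows. The palindromic STAT motif TTCNNNGAA was in none of them and in 7.66% of 35116 windows of all genes. The variant with 4 bases between TTC and GAA was in 1, a window of STAT5A, and in 6.44% of all windows. Both read the same on either strand.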
